A study of Homo sapiens with 12 samples.

Results

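The library described here is replicate 3 of parental OCI-LY1 cells given decitabine, 1 of 12 libraries of the study. It is described by itself because it is the only column in which coding genes hold most of the signal, so that share is a reason for the choice and not a result. Its values were taken from the column of the parental table that carries its label, row by row by gene name. OCI-LY1 is an established human line of diffuse large B-cell lymphoma (DLBCL). The 12 libraries fall into 4 groups of 3: parental cells with vehicle (DMSO), parental cells with 1 µM decitabine, venetoclax-resistant OCI-LY1R cells with vehicle, and OCI-LY1R cells with 1 µM decitabine, each for 3 days. OCI-LY1R cells are descended from the parental line through exposure to rising venetoclax concentrations that ended at 1 µM. Every library comes from polyadenylated RNA of this 1 cell line and its derivative, so nothing here speaks for other lymphomas, and the labels do not say whether replicates were separate cultures. A single library allows neither an error, nor a test, nor a statement on the effect of decitabine, and none is made.

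Values are TPM, a measure of transcript abundance that is adjusted for transcript length, and sum to 1000000 in a library. Because of the length adjustment, levels of different genes can be set side by side within the library. TPM keep no read number, so the depth behind a value is unknown and no counting interval can be given. Protein-coding genes took 89.4% of TPM in this library and 26.6% to 32.2% in the other 11. The strand setting used for either is not given in the sources used here and its part in that gap was not tested, so values of the other 11 appear below only as ranges. A value of exactly 0 is given as listed at 0 and is not read as absence.

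Germinal-centre B cells are B cells that divide fast in lymphoid follicles while they mutate and select their antibody genes. They signal through the B-cell receptor, a membrane immunoglobulin held by CD79A and CD79B, and BCL6 keeps them from becoming plasma cells. Lymphomas of this origin usually keep that machinery, and many depend on the survival protein BCL2, the target of venetoclax. Decitabine is a deoxycytidine analogue that, once phosphorylated and built into DNA, traps DNA methyltransferases.

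CD79A, ACTB, BCL2 and LCK were chosen together with the library, and all were at high levels. Of them only CD79A is particular to B cells. CD79A, the signalling chain of the B-cell receptor (chromosome 19, 41877120 to 41881372, GENCODE 29 on GRCh38), was at 1491 TPM and ranked 55 among protein-coding genes. ACTB, cytoplasmic beta-actin (chromosome 7, 5527147 to 5563784), was at 6353 TPM and ranked 15. BCL2 (chromosome 18, 63123346 to 63320128) was at 170 TPM, and LCK, a Src-type kinase best known from T cells (chromosome 1, 32251239 to 32286165), was at 144 TPM. CD79A goes with the label of a B-cell line, and LCK is taken up below with the other T-cell genes.

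Many of the most abundant messages of nuclear protein-coding genes serve protein synthesis, and many of those begin in the same way. Messages of the translation machinery typically carry a 5′ terminal oligopyrimidine tract, abbreviated TOP, which is a C at the first transcribed base followed by a run of C and T. The sequences that follow are 30 bases around annotated start sites, 10 before the start and 20 from it, on the strand of the gene, from RefSeq promoters on GRCh38.p14. They are shown because they set abundant messages that have the tract beside equally abundant ones that lack it. Capitals mark the pyrimidine run that begins at the start, where it is a C followed by at least 4 bases of C or T.
RPL28, chr19:55385922-55385951, + strand: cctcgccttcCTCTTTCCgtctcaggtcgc
RPS27, chr1:153990752-153990781, + strand: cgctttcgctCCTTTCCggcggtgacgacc
RPLP2, chr11:809957-809986, + strand: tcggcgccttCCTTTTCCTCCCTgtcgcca
RPLP0, chr12:120201092-120201121, - strand: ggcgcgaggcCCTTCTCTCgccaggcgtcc
RPL13A, chr19:49487598-49487627, + strand: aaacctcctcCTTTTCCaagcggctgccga
RPL35, chr9:124861938-124861967, - strand: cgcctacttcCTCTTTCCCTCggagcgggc
EEF1A1, chr6:73521013-73521042, - strand: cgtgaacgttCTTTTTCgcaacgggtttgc
RACK1, chr5:181243887-181243916, - strand: gcttttctctCTCTCTTTCactgcaaggcg
PTMA, chr2:231708515-231708544, + strand: ccgcgtgagtCCCCCactggctgctctgaa
GAPDH, chr12:6535254-6535283, + strand: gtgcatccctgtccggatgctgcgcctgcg
TUBA1B, chr12:49131376-49131405, - strand: gccccgccctagtgcgttacttacctcgac
ACTG1, chr17:81512780-81512809, - strand: cgcggtcggtctcagtcgccgctgccagct

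The last 3, GAPDH, TUBA1B and ACTG1, have no run of that length at their listed start, although they stood at 8412, 3604 and 2922 TPM. ACTG1 begins with ctca, which is too short. The runs of the ribosomal proteins shown ranged from 7 bases in RPS27 and RPL13A to 13 in RPLP2, and PTMA had 5.

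The rule was then applied to every protein-coding gene with a RefSeq start in the table (14850 genes). A gene met it where any listed start was a C followed by at least 4 bases of C or T. Among the 3777 genes listed at 0, 3.65% met the rule. The share was 5.18% above 0 and under 1 TPM, 6.64% from 1 to under 10 TPM and 6.96% from 10 to under 100 TPM. It then was 14.2% (116 of 819) from 100 to under 1000 TPM and 49.2% (30 of 61) at 1000 TPM and above. Of 63 ribosomal protein genes with a start, 47 met it (74.6%), against 943 of all 14850 coding genes (6.35%). Counted by start and not by gene, 4.07% of all start sites in the table met it. Without the ribosomal protein genes, the shares of the top classes were 11.8% (93 of 789) and 21.4% (6 of 28).

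Those 6 messages outside the ribosome were PTMA (prothymosin alpha) at 2831 TPM, HMGA1 (a chromatin architectural protein) at 2693, EEF1A1 and EEF2 (elongation factors) at 2688 and 1627, RACK1 (a ribosome-bound scaffold) at 2663 and TPT1 (translationally controlled tumour protein) at 1486. Genes with several listed starts have more chances to meet the rule. Over genes with 1 listed start, 4.71% of all 10972 met it. A match is a description of annotated letters and says nothing of the start used in these cells.

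**Figure D1:**
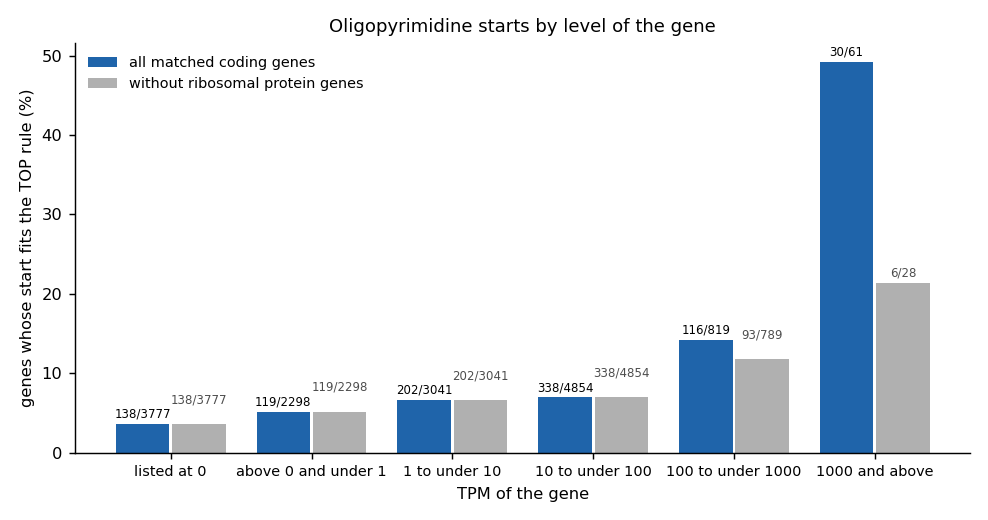
Share of protein-coding genes with an oligopyrimidine start (vertical axis, percent) by level in the library (horizontal axis, TPM classes), for all matched genes (blue) and without ribosomal protein genes (grey), with counts above the bars. The share is between 3.65% and 6.96% below 100 TPM, then 14.2% and 49.2% in the upper classes, and 11.8% and 21.4% there without the ribosomal protein genes.

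The library was led by the mitochondrial genome. Its 13 protein-coding genes held 29.9% of all TPM, and its ribosomal RNAs another 2.29%. MT-CO2, a core subunit of cytochrome c oxidase, ranked first at 57348 TPM, followed by MT-CO3 at 34562 and MT-ATP6, of ATP synthase, at 32953. The complex I genes ran from MT-ND4 at 23649 TPM and MT-ND1 at 21770 TPM down to MT-ND5 at 6523 TPM. MT-ND6, which unlike the other coding genes of this genome is encoded on the light strand, was lowest at 610 TPM. MT-ATP8 and MT-ND4L overlap their neighbours, so their reads cannot be told apart with certainty.

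Among nuclear protein-coding genes the level fell off slowly. GAPDH (chromosome 12, 6533927 to 6538374), a glycolytic enzyme, was highest at 8412 TPM, and RPS2 of the small ribosomal subunit followed at 6855. The 10 highest nuclear coding genes held 4.53% of TPM, the 100 highest 17.5% and the 1000 highest 36.9%. It took 485 genes to reach 50% of the nuclear coding TPM. Of 19473 protein-coding genes, 10825 (55.6%) were at 1 TPM or above, 6953 at 10 or above, 1079 at 100 or above and 91 at 1000 or above. The median over all of them was 2.55 TPM, and 5405 (27.8%) were listed at 0. These shares are the background for the lists below. Level was nearly unrelated to exon length over 10812 nuclear genes at 1 TPM or above (Spearman rho -0.09 across genes, which are not independent). The most abundant were shorter, with a median exon length of 2982 bases at 1000 TPM and above against 5048.5 bases over all at 1 TPM or above.

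**Figure D2:**
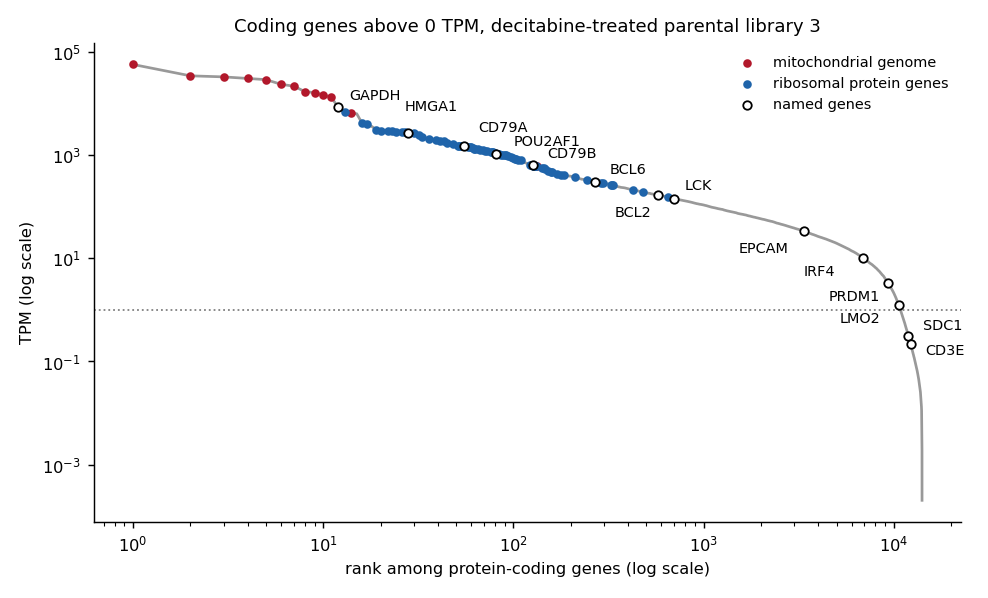
Level (TPM, log scale) against rank (log scale) for protein-coding genes above 0, with mitochondrial genes in red, ribosomal protein genes in blue and named genes as open points. The dotted line is 1 TPM. CD79A lies among the ribosomal protein genes at 1491 TPM, and CD3E of the T-cell receptor complex lies at the low end at 0.22 TPM.

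Of the 25 highest nuclear coding genes, 14 encode ribosomal proteins. The cytoskeleton was there with ACTB, TUBA1B (alpha-tubulin) at 3604 TPM, ACTG1 (gamma-actin) at 2922 and TMSB4X (thymosin beta 4, which binds actin monomers) at 2033. PABPC1, the poly(A)-binding protein, was at 2166 TPM. CD74, the invariant chain of HLA class II (chromosome 5, 150401637 to 150412929), was also in that set, at 1986 TPM. The annotation keeps immunoglobulin constant genes in a class of their own, outside the protein-coding genes ranked here; they are given below.

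The B-cell receptor complex and its co-receptors were high as a group: 14 of 15 were at 1 TPM or above, with a median of 320 TPM. CD79A led, followed by CD52 (a small surface glycoprotein of lymphocytes) at 1224 TPM and CD37 (a tetraspanin of mature B cells) at 810. CD79B, the partner of CD79A, was at 634 TPM, VPREB3, a chaperone-like protein of the receptor, at 538, and FCRLA, an intracellular Fc receptor-like protein, at 419. The therapeutic target CD20, encoded by MS4A1, was at 204 TPM. CR2, a complement receptor of mature B cells, was listed at 0.

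Receptor signalling was present from end to end, with 20 of 20 members at 1 TPM or above and a median of 57.0 TPM. SYK, the kinase that binds phosphorylated CD79, was at 172 TPM. CD53, a tetraspanin that supports receptor signalling, was at 170 TPM, and PLCG2, the lipase downstream of BTK, was at 159. Among Src-type kinases LCK (144 TPM) stood above BLK (116), a B-lineage kinase, and LYN (70.9), the one usually placed first at the B-cell receptor. GRB2, an adaptor, was at 88.5 TPM and BTK at 57.5. The arm to NF-kB was lower, with BCL10 at 12.8 and MALT1 at 5.62 TPM, and FYN was lowest of the list at 3.65.

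All 20 B-cell transcription factors were at 1 TPM or above, with a median of 115 TPM. POU2AF1, the octamer coactivator of B cells, was far above the rest at 1073 TPM. TCF3, which encodes the E2A proteins, was at 524 TPM, IRF8 at 246, SPI1 (PU.1) at 217, MEF2B, a germinal-centre factor, at 197 and ETS1 at 172. PAX5, which commits cells to the B lineage, was at 136 TPM and EBF1, an early B-cell factor, at 37.2. POU2F2 and POU2F1, the DNA-binding partners of POU2AF1, were at 40 and 9.23 TPM.

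Germinal-centre genes gave the same picture in 21 of 21 measured members, with a median of 66.4 TPM. LRMP and P2RY8, the other 2 of the list, had no row whose name occurs once. MYBL2, a cell-cycle factor, was at 499 TPM, CXCR4, the receptor of the dark zone, at 394, TCL1A, an AKT coactivator, at 332, and BCL6 (the repressor that maintains the state) at 306. CXCR5, which draws cells into follicles, was at 114 TPM and MME, the surface antigen CD10, at 99.8. LMO2, often used as a germinal-centre marker, was the exception at 1.24 TPM. Over the 4 lists 75 of 76 measured members were at 1 TPM or above, with a median of 81.2 TPM, beside 55.6% and 2.55 TPM for all coding genes.

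The next stage of B-cell life was mixed. Of 18 genes of post-germinal-centre and plasma cells, 14 were at 1 TPM or above, with a median of 7.74 TPM. JCHAIN, which joins secreted immunoglobulin into polymers, was at 972 TPM, CD27, a memory and germinal-centre receptor, at 283, and MZB1, an endoplasmic reticulum chaperone for antibodies, at 178. PIM1, a survival kinase, was at 114 TPM and XBP1, the factor of the secretory programme, at 79.6. The master regulators of the plasma cell were low, IRF4 at 10.2 TPM and PRDM1 at 3.34, and its surface marker SDC1 was at 0.31.

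**Figure D3:**
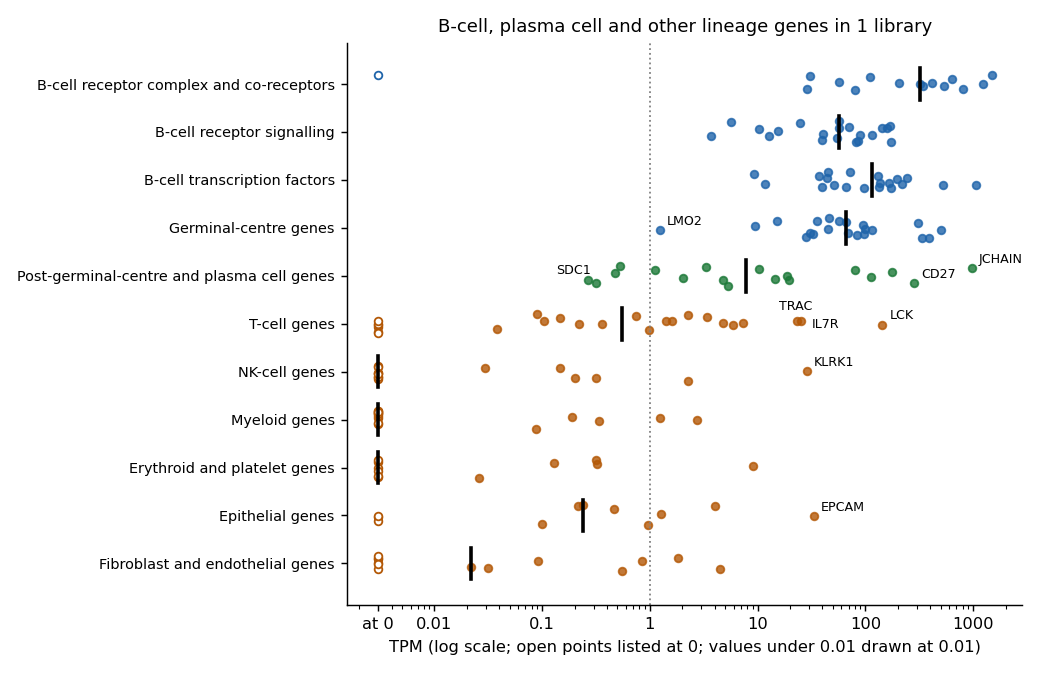
Level (horizontal axis, TPM, log scale, values listed at 0 as open points at the left) of each member of 4 B-cell lists (blue), the post-germinal-centre list (green) and 6 other lineage lists (orange), with list medians as black bars. All but 1 of the 76 measured B-cell list members lie above 1 TPM, whereas 20 of 88 members of the other lineages do. LCK is drawn both in a B-cell list and in the T-cell list. The vertical position within a list carries no value.

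Immunoglobulin messages ranked with the ribosomal proteins. IGKC, the constant region of the kappa light chain (chromosome 2, 88857161 to 88857683), was at 6452 TPM and held 86.2% of the TPM of the light-chain constant genes. IGHM, the constant region of IgM (chromosome 14, 105851705 to 105856218), was at 2721 TPM and held 76.5% of the TPM of 9 heavy-chain constant genes. IGHD, which is spliced from the same primary transcript, was at 87.7 TPM, so IGHM stood 31.0 times higher. IGHG1 was at 341 TPM and the lambda genes IGLC2, IGLC3 and IGLC7 at 487, 288 and 258. The heavy gamma and the lambda constant genes are each near-identical copies, so the split among them is uncertain. Constant features classed as pseudogenes were left out of the IGKC and IGHM shares, among them IGLC6 at 316 TPM and IGLC5 at 78.3 TPM in the lambda locus. The IGKC share would be lower with them.

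Rearranged segments gave a much weaker record. The highest variable gene, IGLV6-57, was at 158 TPM and lies in the lambda locus, while IGHV1-24 at 24.2 TPM and IGKV3-20 at 17.3 TPM led their loci. Of 59 heavy-chain variable genes 6 were at 1 TPM or above, and of 46 kappa variable genes 15. Joining segments reached 483 TPM in IGHJ3 and 255 in IGKJ1, but these features are very short (median exon length 50.5 bases in the heavy-chain locus), which makes a TPM value there unstable. The surrogate light chain genes of early B cells were low, VPREB1 at 3.34 TPM and IGLL1 at 0.48. IGLL5, which lies in the lambda locus, was at 351 TPM, and the split of its reads from those of the lambda constant genes is uncertain.

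A second element belongs to B-cell promoters, the octamer ATGCAAAT, the site of POU2F1 and POU2F2. Its letters and the reverse complement ATTTGCAT were searched on the 250 bases before and the 50 bases after each RefSeq start. They were present in 7 of 60 matched genes of the 4 B-cell lists (11.7%), in 1 of 47 of the 6 other lineage lists, in 2.03% of 14850 matched coding genes and in 1.77% of all starts in the table. The windows below show the octamer in capitals on the strand of the gene for 5 of the 7, and the distance is counted from the start to the first base of the octamer.
VPREB3, chr22:23754454-23754483, - strand, -47 bases: tcaataggctgATTTGCATgctctgttgtg
CD53, chr1:110871153-110871182, + strand, -46 bases: catgtgattaaATTTGCATtttagaaggct
MEF2C, chr5:88824386-88824415, - strand, -60 bases: tcgtccatcctATTTGCATaacgagggacg
PRKCB, chr16:23835892-23835921, + strand, -80 bases: gcctgggcgcgATGCAAATgaggagggcgg
MEF2B, chr19:19170327-19170356, - strand, -82 bases: tgacgccctgtATGCAAATaagcccgtccc

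Levels of those genes ranged widely: VPREB3 was at 538 TPM, MEF2B at 197, CD53 at 170, MEF2C at 45.1 and PRKCB at 10.2. The other two were SERPINA9, a germinal-centre protease inhibitor, at 28.4 TPM and POU2F1 at 9.23. Over all coding genes the octamer did not go with a high level, since the median was 2.02 TPM in the 302 genes that have it and 3.96 TPM in the rest. The lists were small and chosen with results known, so the difference in share is a description.

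Genes of other lineages were mostly at or near 0. Of 88 genes in 6 lists (T cell, NK cell, myeloid, erythroid and platelet, epithelial, fibroblast and endothelial), 20 were at 1 TPM or above, 8 at 5 or above and 39 listed at 0, with a median of 0.063 TPM. Few cells of a type and little RNA per cell cannot be told apart in a bulk library. The CD3 chains of the T-cell receptor complex were close to 0, with CD3D and CD3G listed at 0 and CD3E at 0.22 TPM. The adhesion receptor CD2 was listed at 0. CD5 was at 0.74 and CD7 at 4.74 TPM.

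Against that, a few genes of the T-cell list stood out. LCK, which is also in the B-cell receptor signalling list and so is counted in both sets, was at 144 TPM. IL7R, the interleukin-7 receptor (chromosome 5, 35852695 to 35879603), was at 25.1 TPM. TRAC, the constant region of the T-cell receptor alpha chain, was at 23.2, TRBC2 at 7.24 and TCF7, a T-cell factor, at 5.95. No variable gene of the alpha or beta receptor loci reached 1 TPM (45 and 49 genes). KLRK1, an activating receptor of NK cells (chromosome 12, 10372353 to 10391874), was at 28.6 TPM, but NKG7 and GNLY, the granule genes of NK cells, were listed at 0, and a readthrough gene overlaps KLRK1. EPCAM, an epithelial adhesion protein (chromosome 2, 47345158 to 47387601), was at 33.4 TPM, while the keratins KRT7, KRT14 and KRT19 were listed at 0 and KRT18 was at 0.97. EPOR, the erythropoietin receptor, was at 9.03 TPM with HBB listed at 0. The myeloid markers LYZ, CSF1R and MPO were listed at 0, and CD14 was at 0.34 TPM.

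Among BCL2-like survival proteins BCL2 led. It held 52.2% of the summed TPM of 6 genes, with BCL2L1 (BCL-XL) at 90.3 TPM and 27.7%, and MCL1 at 56.3 TPM. BCL2A1 was at 7.50 TPM, BCL2L2 at 1.60 and BCL2L10 at 0.29. Of the pore-forming effectors BAX was at 125 TPM and BAK1 at 36.2, and BOK was listed at 0. All 8 BH3-only genes, whose products oppose the survival proteins, were at 1 TPM or above. BCL2L11 (BIM) was at 100 TPM, BAD at 80.1, BIK at 79.4, PMAIP1 (NOXA) at 75.7, BMF at 74.4 and HRK at 43.7, while BBC3 (PUMA) was lowest at 16.3. All 19 genes of the apoptosome, caspases and inhibitors were at 1 TPM or above, led by the channel VDAC1 at 204 TPM. BIRC5 (survivin) was at 72.2 TPM, CASP2 at 53.8 and DIABLO, which frees caspases from their inhibitors, at 53.1. XIAP and APAF1 were at 7.78 and 9.42 TPM.

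DNMT1, the maintenance methyltransferase that decitabine traps (chromosome 19, 10133345 to 10231286), was at 221 TPM and held 96.4% of the summed TPM of the methyltransferase genes. The de novo enzymes DNMT3B and DNMT3A were at 5.67 and 2.50 TPM, and DNMT3L was listed at 0. UHRF1, which brings DNMT1 to replicated DNA, was at 70.8 TPM. The readers MBD1 and MBD3 were at 96.9 and 95.9, MBD4 at 45.8 and MBD2 at 42.6. The demethylation enzymes TET2 and TET3 were near each other at 4.61 and 4.40 TPM, with TET1 at 0.33.

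For the drug itself, 14 of 20 genes of uptake and metabolism were at 1 TPM or above. SLC29A1, the main equilibrative transporter of nucleosides, was at 85.1 TPM and SLC29A2 at 46.2. The concentrative carriers SLC28A1 and SLC28A2 were listed at 0 and SLC28A3 was at 0.17 TPM. DCK, which adds the first phosphate, was at 53.4 TPM and CMPK1, which adds the next, at 47.1. The nucleoside diphosphate kinases NME2 and NME1 were at 603 and 216. On the side of inactivation CDA, which deaminates decitabine, was listed at 0, DCTD was at 18.6 TPM and SAMHD1, which removes the triphosphate, at 32.2. Enzymes of deoxynucleotide metabolism were well represented, RRM2 at 130 TPM, RRM1 at 96.0, DUT at 87.8 and TYMS at 76.9. The efflux pumps ABCB1 and ABCG2 were at 0.17 and 0.032 TPM.

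Members of the families listed here were seldom at equal levels. In 92 families whose members summed to at least 5 TPM, the leading member held a median of 80.7% of the sum. It held at least 90% in 36 families, 50% to under 90% in 48 and less than 50% in 8. No test stands behind these counts, and no groups of unrelated genes were set beside them. In a pair the leading member holds at least 50% by definition, so less than 50% could not occur there. The families are written lists of related genes, not a sample of all, and their choice shapes the counts. The cytochrome c list is led by CYC1 at 86.1%, which is a complex III subunit and not a paralogue of CYCS. Members that are near-identical in sequence, such as the actins and the alpha-tubulins, can exchange reads, so their shares are uncertain.

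In signalling, SYK held 99.4% over ZAP70, its T-cell counterpart, and BTK held 92.1% of the TEC kinases. VAV1, the haematopoietic exchange factor, held 82.5% of its family and PLCG2 73.5% over PLCG1. PIK3CD and PIK3CG, the leukocyte PI3-kinases, held 47.8% and 34.3% of the class I catalytic subunits. Src-type kinases had the lowest leading share of all the families, with 41.3% in LCK and 33.4% in BLK. PRKCA held 68.0% of the conventional protein kinase C genes and PRKCB, the isoform of B-cell receptor signalling, the rest.

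Among transcription factors, BCL6 held 99.9% over BCL6B, BCL11A all of its pair, BACH2 88.9% over BACH1 and MYBL2 94.0% of the MYB family. TCF3 held 78.9% of the E proteins, POU2F2 80.7% of the class 2 octamer factors and IKZF1 65.2% of the Ikaros family, with IKZF3 (Aiolos) second at 21.4%. SPI1 and SPIB divided their family at 56.5% and 43.5%. MEF2B, a factor largely of the germinal centre, held 59.1% of the MEF2 genes. LMO4 held 95.7% of the LMO genes and LMO2 3.91%. RELA and RELB led NF-kB at 42.3% and 26.9%.

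Receptors of position showed S1PR2, which confines B cells to the germinal centre, at 87.8% of the S1P receptors, and CXCR4 at 77.4% over CXCR5 at 22.5%. TNFRSF13C, the BAFF receptor, held 57.1% of its family and TNFRSF17 (BCMA) 37.2%.

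In the cell cycle CCND3 held 97.1% of the D cyclins, CCNA2 all of the A cyclins, MYC 99.3% of its family, CDK4 98.5% over CDK6 and EZH2 71.0% over EZH1. The E cyclins were even, with CCNE1 at 52.0%. HMGA1 stood at 2693 TPM with HMGA2 listed at 0. HMGB2 led the high mobility group B genes at 446 TPM, and HMGB1 held 37.3% of their sum. The nuclear lamina was of the B type, with LMNB2 at 59.5% and LMNB1 at 38.8%, so that LMNA held the small rest.

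**Figure D4:**
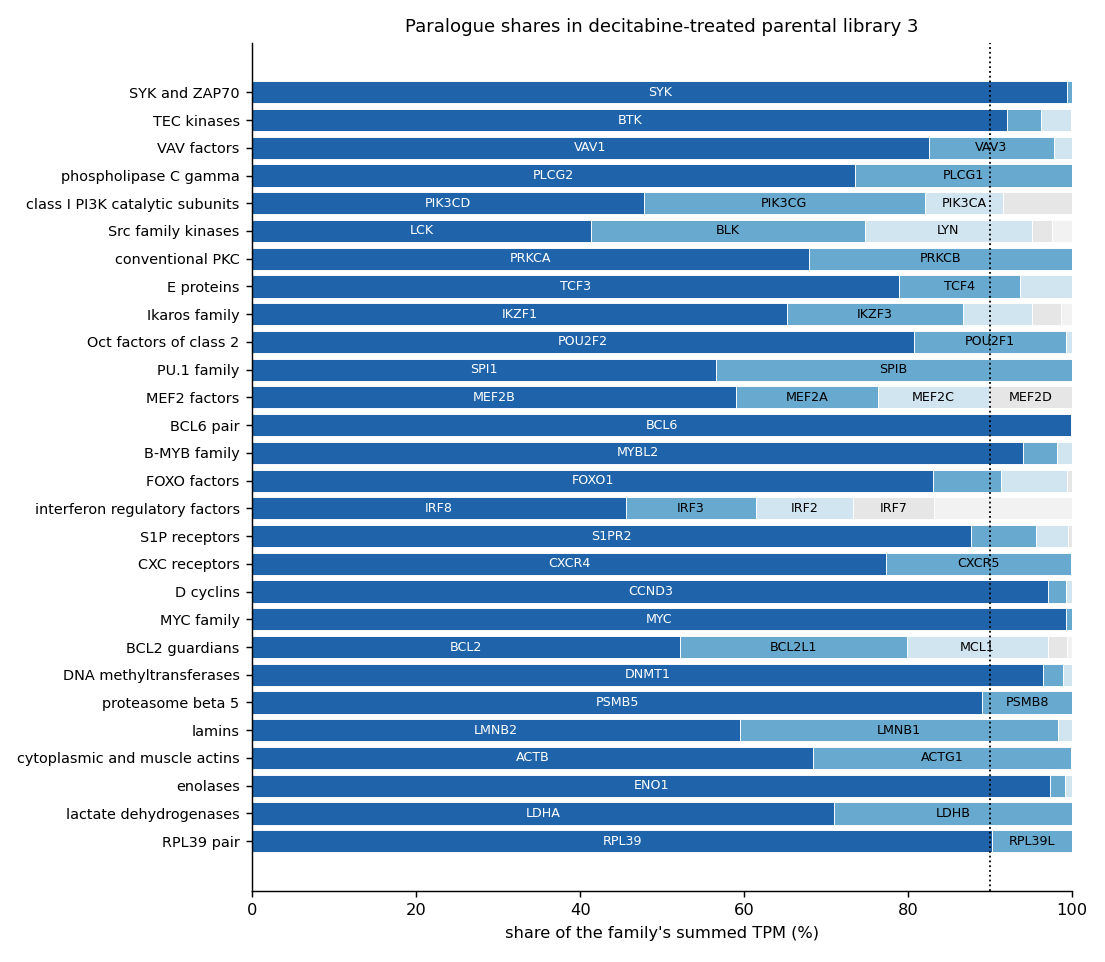
Share of the summed TPM (horizontal axis, percent) held by each member of 28 of the 92 paralogue families, with the leading member in dark blue and further members in paler shades; the palest segment sums the fifth and later members. The dotted line is 90%, which SYK (99.4%), BCL6 (99.9%), MYC (99.3%) and CCND3 (97.1%) pass and LCK (41.3%), IRF8 (45.6%) and PIK3CD (47.8%) do not.

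In metabolism PKM held all of the pyruvate kinases, ENO1 97.3% of the enolases, ALDOA 94.1% of the aldolases and SLC2A1 99.8% of the glucose transporters. LDHA held 71.0% and LDHB the rest. The phosphofructokinases were split, PFKL at 46.5% and PFKP at 44.5%. All 14 glycolytic genes were at 1 TPM or above, with a median of 171 TPM, and HK2 was lowest at 24.1. Tissue-specific subunits of cytochrome c oxidase were at or near 0, since COX4I1, COX6A1 and COX7B each held all of their pair.

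In the cytoskeleton the blood-cell forms led in some families and not in others. CORO1A, the leukocyte coronin, held 63.9% and RAC2, the haematopoietic Rac, 64.1% over RAC1 at 26.0%. ARPC1A and ARPC1B were nearly equal at 50.1% and 49.9%. TUBB4B led the beta-tubulins at 54.9%, with TUBB second at 16.4%. MYH9 held 94.8% of the non-muscle myosins, CFL1 98.5% of the cofilins and PFN1 98.5% of the profilins.

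Members of 1 complex, which cells need in fixed proportion, could be set against each other as a measure of evenness. These complex lists were chosen after values had been seen. The 79 cytosolic ribosomal protein genes held 10.4% of TPM at a median of 1059 TPM, with quartiles of 612 and 1528 TPM, and ran from RPS9 at 153 TPM to RPS2 at 6855. The CCT chaperonin was tight, its 8 genes lying between CCT5 at 116 TPM and CCT7 at 246. Complex II was as tight, from SDHA at 79.3 to SDHD at 160 TPM. The 6 MCM helicase genes, which form a ring of 1 copy each, ran from MCM6 at 74.7 to MCM7 at 327 TPM. The 37 nuclear complex I genes spread further, from NDUFA9 at 6.77 to NDUFS8 at 415 TPM. The 14 constitutive genes of the proteasome core had a median of 103 TPM, from PSMA5 at 24.0 to PSMB4 at 346. All 20 genes of the proliferation list were at 1 TPM or above, with a median of 130 TPM, and MKI67 was at 66.8.

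Antigen presentation showed a sharp contrast within 1 pathway. CD74 was at 1986 TPM and CIITA, the master regulator of class II genes, at 16.5, yet HLA-DRA (chromosome 6, 32439842 to 32445046), HLA-DRB1, HLA-DPA1, HLA-DQA1 and HLA-DQB1 were listed at 0 and HLA-DPB1 was at 0.012 TPM. RFXANK and RFX5, subunits of the factor that binds class II promoters, were at 155 and 71.2 TPM. In class I, HLA-B was at 1.47 TPM and HLA-C at 0.10, and HLA-E and HLA-F were listed at 0. Their partner B2M was at 171 TPM, and the loading chaperones CALR and PDIA3 were at 1180 and 188. HLA-DRA was listed at 0 in all 11 other libraries as well. So were genes with clear levels in this library, such as TAP1 at 10.2 TPM and IGHD at 87.7 TPM. The 0 of HLA-DRA in the other libraries is therefore not read as absence either. Some HLA genes are alike in sequence and vary between people, so the assignment of their reads is uncertain. Whether that bears on the values listed at 0 here was not tested.

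The low values were not limited to HLA genes, and the interval was examined for that reason, after its values had been seen. Between HLA-F and HLA-DPB1 (chromosome 6, 29722775 to 33087201) lie 134 protein-coding genes of the table. Of these 61 (45.5%) were at 1 TPM or above, the median was 0.43 TPM and 51 were listed at 0. Only TUBB, at 175 TPM, reached 100. CLIC1, MRPS18B and NEU1, which are not HLA genes and were singled out after their values were seen, were listed at 0. In the 5 Mb after the interval 57 of 79 genes were at 1 TPM or above, with a median of 14.5 TPM, and in the 5 Mb before it 19 of 64, with a median of 0.024 TPM. The interval thus lay between its flanks. Promoters rich in CG pairs often belong to widely expressed genes, and 15 CG pairs in the 250 bases before the start were taken as rich. Inside the interval 36 of 47 such genes (76.6%) were at 1 TPM or above, beside 7151 of 9537 of all such genes, with medians of 5.51 and 10.7 TPM.

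The immune proteasome subunits PSMB8 and PSMB9, which lie inside that interval, held 10.9% and 6.58% against their constitutive counterparts PSMB5 and PSMB6. PSMB10, which lies elsewhere, held 30.9% against PSMB7. A part of position in these shares was not tested. TAP1 and TAP2, the peptide transporter genes of the interval, were at 10.2 and 5.79 TPM. A second stretch dense in receptor families, from NDUFA3 to NCR1 on chromosome 19, had 7 of 33 coding genes at 1 TPM or above, all 7 among its 10 genes with a promoter rich in CG pairs. It contains RPS9, the lowest of the ribosomal protein genes, at 153 TPM.

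**Figure D5:**
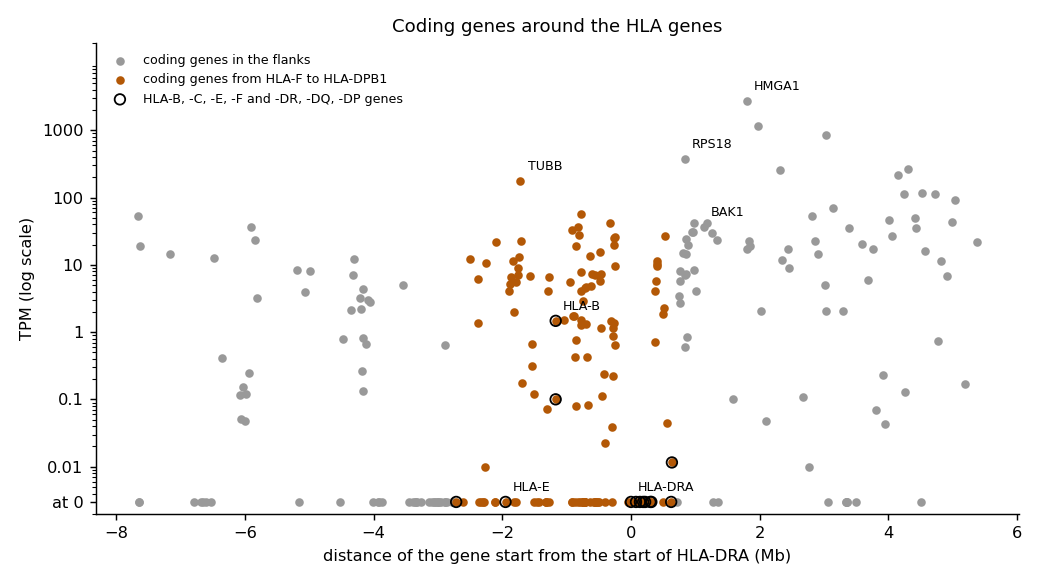
Level (vertical axis, TPM, log scale, genes listed at 0 on the bottom line) of protein-coding genes by distance from the start of HLA-DRA (horizontal axis, Mb), from HLA-F to HLA-DPB1 in orange and in the 5 Mb flanks in grey, with HLA-B, -C, -E, -F and the DR, DQ and DP genes ringed. Inside, 1 of 134 genes reaches 100 TPM, against 10 of 79 in the flank on the right and 0 of 64 in the flank on the left.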

How the data were processed

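Each cell line has its own table of decimal values, whose columns name no unit. The values sum to 1000000 in every library, and the submitters' processing notes list StringTie, a program that reports TPM, so the deposited values were taken as the authors' TPM. The same notes list HISAT2 and build hg38, with no versions. The libraries were stranded, per the labels' protocols, but neither the strand setting nor the annotation release is given in the sources used here. Depth is unknown.

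Gene names that occur once were used (59490 of 60656 features); 1166 features with repeated names, 2216 TPM in all, were left out. GENCODE 29 (GRCh38) gave class, position and exon length, and 54865 of the names occur once in it. The identifier column was not used: of 58438 identifiers found in GENCODE 29, 50.6% belong to the name beside them, and 24420 belong to the name 1 row above. The median of the 79 ribosomal protein genes was 1059 TPM by name and 0.00087 TPM by identifier.

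The text names the 25 nuclear coding genes of highest TPM, the 6 highest members of each of 25 lists with those listed at 0 where these are 6 or fewer, members of non-B lists at 5 TPM or above, and the first and second members of the families described; not every gene so chosen is printed, and other members are named for their role. The library, the lists, the families and this rule were chosen with earlier results of these data known. The complexes, the intervals on chromosomes 6 and 19, the pseudogenes and the start-site motifs were added after values were seen. Some genes of the lists are not reported here. Motif rules were tested on made-up sequences. Shares and counts were computed with Python 3.11.15, pandas 2.3.3 and numpy 2.4.6, and figures with matplotlib 3.10.9. With 1 library there was no test. Alternatives were other levels, other share limits, repeated names kept, TPM rescaled without the mitochondrial genome, and identifiers in place of names.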

Additional observations from a re-analysis of the deposited data

How the results depend on the processing

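Alternatives were run for 5 quantities: the coding share, the number of coding genes, the paralogue families, the B-cell lists together and the non-B lists together. The coding share was the reason for choosing the library and is not a result. Of these, 1 changed by more than 1.5 times: members of the 6 non-B lineage lists were 20 at 1 TPM or above and 8 at 5 TPM or above. At 0.5 TPM they were 25, and 24 after rescaling TPM without the mitochondrial genome. Under the alternatives run, protein-coding genes held 88.8% to 89.6% of TPM, and those at the level numbered 8608 (5 TPM) to 11491 (0.5 TPM), with 9886 by identifier. Members of the B-cell lists at the level were 73 to 75, and 60 of 77 by identifier. Counts by identifier cannot weigh on the others, since 24420 identifiers belong to the name 1 row above and so carry the value of another gene. Some single lists also changed by more than that between 1 and 5 TPM, cancer-testis genes from 13 to 6, T-cell genes from 10 to 5 and HLA class II genes from 8 to 5. A member held at least 80% of the sum in 48 families in place of 36 at 90%. No paired analysis was possible because the results come from 1 library and no test, and for the same reason no replicate could be left out. The depth is unknown, so what a low value or a 0 allows cannot be given.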

Other observations

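Interferon-stimulated genes were all at 1 TPM or above (27 of 27, median 80.4 TPM). MX1, a GTPase that blocks viruses, was highest at 742 TPM, followed by ISG15, a ubiquitin-like modifier, at 336, the membrane proteins IFITM1 at 273 and IFI6 at 271, OAS1, a sensor of double-stranded RNA, at 212, and BST2 (tetherin) at 178. Cytosolic sensors were lower, IFIH1 (MDA5) at 25.3 TPM and DDX58 (RIG-I) at 19.5. Coding genes took 26.6% to 32.2% of TPM in the other 11 libraries, vehicle included, so these levels say nothing of the response to decitabine.

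Of 20 cancer-testis genes, which are normally silent outside the germ line, 13 were at 1 TPM or above, with a median of 1.72 TPM. Over all coding genes 55.6% were at that level, with a median of 2.55 TPM. SYCP3 was at 26.5 TPM, PRAME at 26.0, DAZL at 15.6, MAGEA3 at 13.5, CTAG2 at 9.09 and MAGEA6 at 5.62, and DDX4, SOHLH2 and TEX101 were listed at 0. MAGEA3 and MAGEA6 are near-identical copies, so the split between them is uncertain. In a list of 16 long non-coding RNAs with known names the hosts of small nucleolar RNAs led, SNHG29 at 262 TPM, GAS5 at 111 and SNHG6 at 99.8. MALAT1 was at 26.9 TPM, and MIR155HG, the host of miR-155, was listed at 0.

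Some processed copies of genes were listed above their source. RPS28P7 (chromosome 11, 82689559 to 82689768) was at 2967 TPM and RPS28 itself at 261, and RPL41P1 (chromosome 20, 21755270 to 21755350) was at 1759 TPM with RPL41 at 958. Over 78 ribosomal protein genes with named pseudogenes, the pseudogene sum was above the gene in 3, RPL21 being the other. MTATP6P1 (chromosome 1, 633696 to 634376), a nuclear copy of mitochondrial sequence, was at 10858 TPM. Genes and such copies share sequence, so the split of reads between them is uncertain and the levels of RPS28, RPL41 and MT-ATP6 with it.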
